A study of Mus musculus with 12 samples.

Results

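The nuclear complex I genes described here are the listed genes whose symbol begins with Nduf, the name given to nuclear-encoded subunits and assembly factors of NADH:ubiquinone oxidoreductase. The rule used the symbol alone and no measured value. It found 40 genes in CD4 cells and 39 in CD8a cells (Ndufaf2 was listed only in CD4 cells), out of 2999 and 2851 listed genes and of 3684 listed in either cell type. By role, 8 belong to the NADH module, 7 to the ubiquinone (Q) module and 21 to the membrane arm, 3 are assembly factors, and Ndufa4 carries the name but is a subunit of complex IV.

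The values are average expression per mouse in splenic CD4 and CD8a cells, from 10x single-cell RNA sequencing of 12 mice, 3 in each of 4 groups. The groups were S100a9-/- C57Bl6/J mice after stress (stressed knockout), C57Bl6/J mice after stress (stressed wild type), S100a9-/- C57Bl6/J mice with no stress (knockout control) and C57Bl6/J mice with no stress (wild-type control). Stress was repeated social defeat, in which a mouse is attacked and subordinated by an aggressor: 10 days of the paradigm were followed by 1 day of behavioural tests, and spleens were taken on day 12. The sources used here give neither age nor sex, nor the deleted part of S100a9, nor whether the wild-type mice were littermates. S100a9, which encodes a calcium-binding protein of neutrophils and monocytes, averaged 0.0251 ± 0.00378 in stressed knockout, 0.0920 ± 0.0283 in stressed wild-type, 0.0449 ± 0.00387 in knockout control and 0.0110 ± 0.00613 in wild-type control CD4 cells (SD, n = 3 each). The knockout controls were above the wild-type controls, and the stressed knockouts below the stressed wild type. Reads from transcript ends can arise outside a deleted part, so these low levels do not check the genotype labels. Mice sharing a genotype differ in stress alone as far as the labels say, and both cell types come from the same 12 mice.

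Complex I is the entry point of the respiratory chain. Its matrix arm takes electrons from NADH at a flavin (NADH module) and passes them along iron-sulfur clusters to ubiquinone (Q module), and its membrane arm pumps protons into the intermembrane space. The catalytic core is made of nuclear-encoded subunits in the matrix arm and of the mitochondrially encoded mt-Nd proteins in the membrane arm. The other nuclear subunits surround the core, and assembly factors help to build the complex without staying in it. T cells raise mitochondrial respiration when they are activated, and complex I also feeds the NAD+ pool that supports their biosynthesis. Of the 7 nuclear core subunits, 6 were listed. The 7 Nduf genes of GENCODE M21 that were not listed (Ndufs1, Ndufa4l2, Ndufaf1, Ndufaf4, Ndufaf5, Ndufaf6 and Ndufaf7) are not analysed here.

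Promoter sequences are shown for 4 members that differ in their values below. Ndufa6 and Ndufb8 were called higher after stress in both genotypes and both cell types, and Ndufa10 was not. Ndufb1 was called lower in knockout than in wild-type CD4 cells without stress, a call that is not firm. RefSeq (GRCm38.p6) holds a window of 250 bases before to 50 bases after the annotated start for 37 of the 40 members. Ndufa5 and Ndufa7 have 2 windows each. The windows below run 5′ to 3′ on the strand of the gene, and capitals mark a match to one of 4 words searched on both strands. All 4 genes lie on the minus strand, at chr15:82354242-82354541 (Ndufa6), chr19:44555393-44555692 (Ndufb8), chr1:92473709-92474008 (Ndufa10) and chr12:101975689-101975988 (Ndufb1).
Ndufa6: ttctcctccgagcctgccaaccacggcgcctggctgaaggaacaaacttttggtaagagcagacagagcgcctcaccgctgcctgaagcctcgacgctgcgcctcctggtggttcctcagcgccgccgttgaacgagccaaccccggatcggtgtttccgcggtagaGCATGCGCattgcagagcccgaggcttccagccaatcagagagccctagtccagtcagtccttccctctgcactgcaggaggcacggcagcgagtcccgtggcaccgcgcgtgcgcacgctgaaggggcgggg
Ndufb8: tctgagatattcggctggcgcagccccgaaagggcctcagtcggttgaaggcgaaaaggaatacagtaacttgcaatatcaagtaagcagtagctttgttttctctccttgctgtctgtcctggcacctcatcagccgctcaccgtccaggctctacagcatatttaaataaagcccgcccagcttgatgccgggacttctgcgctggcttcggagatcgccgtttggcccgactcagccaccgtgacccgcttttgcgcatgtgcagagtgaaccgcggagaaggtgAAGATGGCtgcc
Ndufa10: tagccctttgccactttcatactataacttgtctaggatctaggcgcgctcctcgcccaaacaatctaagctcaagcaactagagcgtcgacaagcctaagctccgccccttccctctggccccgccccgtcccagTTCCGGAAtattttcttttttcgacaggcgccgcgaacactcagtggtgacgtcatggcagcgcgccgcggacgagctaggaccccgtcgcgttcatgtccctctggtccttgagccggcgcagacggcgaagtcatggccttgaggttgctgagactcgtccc
Ndufb1: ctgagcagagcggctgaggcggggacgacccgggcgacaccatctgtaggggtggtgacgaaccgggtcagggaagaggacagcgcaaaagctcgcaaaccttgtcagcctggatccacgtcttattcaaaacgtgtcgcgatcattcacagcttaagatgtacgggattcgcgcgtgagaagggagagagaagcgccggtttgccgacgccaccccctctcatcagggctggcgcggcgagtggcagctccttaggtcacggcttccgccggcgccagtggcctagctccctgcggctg
The words were the cores of sites for factors known from nuclear respiratory genes, chosen after these sequences were seen. A gene was counted if any of its windows held the word. The NRF1 word GCATGCGC (reverse GCGCATGC) was in 3 of 37 members (8.1%), 6.4% of listed genes and 3.0% of all 27025 genes with a window. It starts 83 bases before the Ndufa6 start. The YY1 word AAGATGGC (reverse GCCATCTT) was in 8 members (21.6%), 6.4% of listed and 3.2% of all genes, and starts 38 bases after the Ndufb8 start. The ETS word CCGGAA (reverse TTCCGG) was in 11 members (29.7%), 36.2% of listed and 16.7% of all genes. The Ndufa10 window holds it on both strands in 1 overlapping run. The ERR word AAGGTCA (reverse TGACCTT) was in 3 members (8.1%), 3.6% of listed and 5.4% of all genes, and none of the 4 words is in the Ndufb1 window. A match describes letters and is not a measured binding site.

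After stress the nuclear complex I genes were higher in both cell types and both genotypes, and no member was called lower in the genes listed for a comparison. In CD4 cells of knockout mice 17 of 37 members rose and 0 fell, where 19.5% of all 1898 genes tested were called higher and 20% lower. In CD4 cells of wild-type mice 30 of 40 rose and 0 fell, where 31% of 2413 genes were called higher and 28.9% lower. In CD8a cells of knockout mice 17 of 39 rose and 0 fell, against 17.9% higher and 22.1% lower of 2023 genes. In CD8a cells of wild-type mice 23 of 35 rose and 0 fell, against 26.7% higher and 41.5% lower of 2108 genes. A call is an adjusted p under 0.05 in limma on log2(value + 0.1), 3 mice against 3, adjusted over every gene that the authors listed for the comparison, and changes are given as log2 ± SE. The authors chose the listed genes on these same mice by a rule not given in the sources used here, so a member that is listed may be listed because it differed.

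Among members listed for the comparison, changes ran from 0.00 to 0.49 in knockout and 0.03 to 0.63 in wild-type CD4 cells. In CD8a cells they ran from -0.05 to 0.48 in knockout and 0.06 to 0.53 in wild-type mice. Tested with all genes of the cell type, members not listed reached -0.11 (Ndufaf2, knockout CD4) and -0.23 (Ndufa10, wild-type CD8a). In those fits 15 of 40 members rose in knockout CD4 cells (11.3% of all genes) and 29 of 40 in wild type (23.7%). In CD8a cells 17 of 39 rose in knockout (13.5%) and 21 of 39 in wild type (18.6%), where 1 fell, Ndufa10. The median log2 change of the members listed for the comparison was 0.26 in knockout and 0.34 in wild-type CD4 cells, beside 0.13 and 0.15 over all genes tested. In CD8a cells it was 0.26 in knockout and 0.32 in wild-type mice, beside 0.11 and 0.09 over all genes tested. With both genotypes averaged, over all genes listed for a cell type, 30 of 40 members rose in CD4 cells (median 0.29, beside 0.05 over 2999 genes, of which 25.3% were called higher and 29.2% lower) and 30 of 39 in CD8a cells (median 0.27, beside 0.03 over 2851 genes, of which 23.8% were called higher and 35.6% lower). All stressed mice were above all controls for 23 of 37 members in knockout CD4 cells (28.8% of all genes), 32 of 40 in wild-type CD4 cells (36.4%), 22 of 39 in knockout CD8a cells (26.6%) and 27 of 35 in wild-type CD8a cells (31.8%). All were below for 0 listed members in each of these 4 comparisons, where 20.2%, 29.1%, 22.1% and 41.4% of all genes were. Ndufa10, not listed for wild-type CD8a cells, was below there. The calls of both genotypes shared 15 genes in CD4 cells, which is 88.2% of the knockout calls and 50% of the wild-type calls. In CD8a cells they shared 14 genes, 82.4% of the knockout and 60.9% of the wild-type calls. The overlap of calls over all genes is not given here, so these shares are not read as particular to the members.

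**Figure D1:**
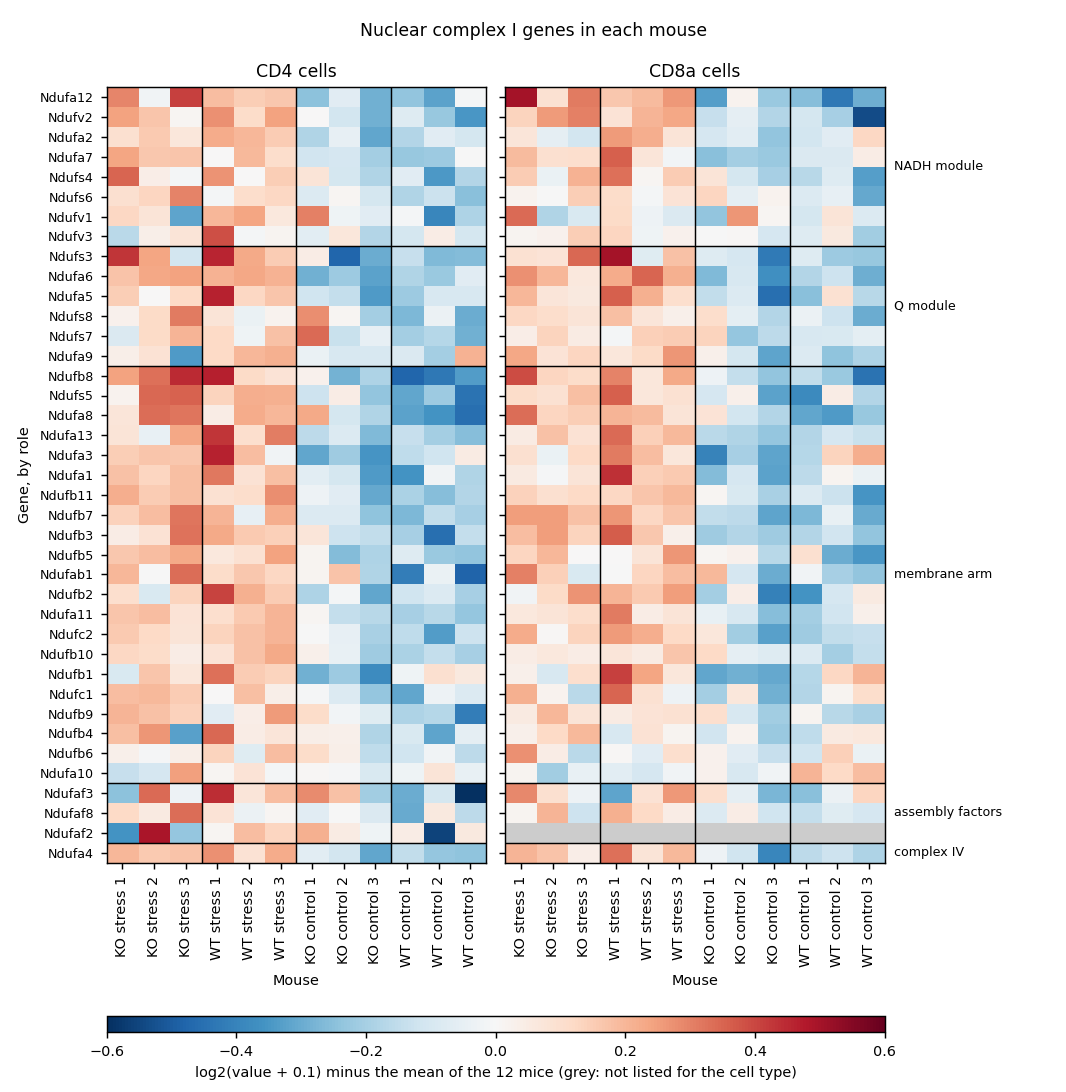
Level of each member shown in each mouse, as log2(value + 0.1) minus the mean of the 12 mice, in CD4 cells (left) and CD8a cells (right), with genes ordered by role and mice by group. The 6 columns of stressed mice are mostly red and the 6 of controls mostly blue, apart from rows such as Ndufa10, Ndufb6 and Ndufv3, and the third knockout control is the bluest column of its group in both cell types.

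The knockout counts rested in part on 1 mouse and on the scaling. Without the third knockout control 8 members were called in CD4 cells and 9 in CD8a cells, in place of 17 and 17. The share of all genes called without that mouse is not given here, so this drop is not read as particular to the members. With ribosomal protein genes and mitochondrially encoded genes removed and the remaining listed genes rescaled to a fixed total, 11 members were called higher in knockout CD4 cells (9.53% of all genes) and 11 in knockout CD8a cells (9.77%), with 32 of 37 and 36 of 39 changes above 0. When the remaining genes were instead scaled to what these genes leave of 10000, an alternative added after the data were seen, 30 and 32 members were called (38.2% and 34.5% of all genes). The split of all calls moved with the scaling too: the higher calls made up 49.3% of all calls in knockout CD4 cells, 31.2% after the first rescaling and 65.2% after the second, and 44.7%, 29.9% and 60.8% in knockout CD8a cells. In wild-type CD8a cells centring on each mouse's median moved the median of all genes to 0.29 in place of 0.09 and the share of higher calls to 57.2% in place of 39.2% (52.7% after the second rescaling), and 34 of 35 members were then called higher, where 54.2% of all genes were.

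Other features of the libraries moved with stress, and their part in these results was not tested. Summed over the genes listed for CD4 cells, ribosomal protein genes were 2812 to 2965 in stressed knockouts, against 2017 to 2092 in knockout controls, and 2989 to 3141 in stressed wild type, against 2263 to 2467 in wild-type controls. Malat1, a nuclear RNA, was 150 to 161, against 212 to 218, in the knockouts, and 149 to 163, against 219 to 237, in wild type. T cell markers (7 of 9 listed) summed to 50.8 to 55.2 in stressed knockouts, against 44.4 to 51.0, and 49.5 to 55.3 in stressed wild type, against 45.0 to 45.9, apart in wild type alone. In CD8a cells (6 of 9 listed) they summed to 48.3 to 52.8, against 48.4 to 54.6, and 51.1 to 52.0, against 49.1 to 52.4, with overlap in both. Natural killer markers (3 of 7 listed: Nkg7, Gzma and Prf1) summed to 2.79 to 5.91 in stressed knockouts, against 1.29 to 2.04. In stressed wild type they summed to 1.81 to 5.26, against 0.714 to 1.3. In CD8a cells the 2 of 7 listed were Nkg7 (4.50 to 7.69) and Klre1 (0.182 to 0.707). Ncr1, Klrb1c and Klrk1 were listed in neither cell type, so these sums do not measure natural killer cell content. B cell and class II markers (6 of 11 listed, Cd79a, Cd79b and Ms4a1 not among them) summed to 3.41 to 4.04, against 7.33 to 10.8, in the knockouts, and 4.25 to 6.98, against 3.39 to 8.76, in wild type. Myeloid markers (7 of 10) summed to 1.25 to 1.73, against 1.34 to 1.94, and 1.3 to 1.6, against 0.824 to 0.878, and erythroid markers (4 of 5) to 1.7 to 5.08, against 0.627 to 5.52, and 0.197 to 2.36, against 0.0891 to 0.141. In CD8a cells the same sums over the genes listed there separated stressed mice from controls in both genotypes for ribosomal protein genes (3213 to 3311, against 2297 to 2472, in the knockouts), Malat1, natural killer markers (2 of 7 listed) and B cell and class II markers (5.13 to 6.36, against 10.5 to 13.7, 8 of 11 listed), while erythroid markers reached 15.9 in 1 stressed knockout. Hbb-bt and Ngp were at 0 in at least 1 mouse in both cell types, and Camp and Hba-a2 in CD8a cells. Cd4 was 1.66 to 3.01 and Cd8a 0.0526 to 0.269 in CD4 cells, and Cd8a was 3.38 to 5.27 and Cd8b1 8.01 to 11.6 in CD8a cells, where Cd4 was not listed. All listed genes together summed to 8120 to 8152 in stressed knockouts, against 7367 to 7437, and 8161 to 8225 in stressed wild type, against 7503 to 7562, in CD4 cells, on a scale that appears to be 10000 per mouse. The number of cells and of reads behind each average is unknown. An average over cells cannot tell fewer expressing cells from less RNA per cell.

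Among the members described in full, Ndufa12 lies on chromosome 10 (94198720 to 94221443, plus strand), Ndufa6 on chromosome 15 (82350140 to 82354322, minus), Ndufb8 on chromosome 19 (44548572 to 44555440, minus), Ndufb7 on chromosome 8 (83566671 to 83571626, plus) and Ndufa10 on chromosome 1 (92439010 to 92473860, minus) of mm10, in the GENCODE M21 annotation, and all are protein-coding. For the counts by role, the shares of all genes called higher were 19.5% in knockout and 31% in wild-type CD4 cells, and 17.9% and 26.7% in CD8a cells. In the NADH module, 3 of 7 members rose in knockout and 7 of 8 in wild-type CD4 cells, and 3 of 8 and 3 of 7 in CD8a cells. Ndufa12, an accessory subunit that joins the module late in assembly, was called in all 4 comparisons. In CD8a cells it was 0.568, 0.404 and 0.488 in stressed knockout mice, against 0.277, 0.379 and 0.305 in knockout controls. In wild type it was 0.429, 0.44 and 0.466 in stressed wild-type mice, against 0.296, 0.251 and 0.286 in wild-type controls. No stressed mouse overlapped a control of its genotype, and the change was 0.48 ± 0.14 (adjusted p = 0.00952) in knockout and 0.53 ± 0.11 (adjusted p = 0.000631) in wild-type CD8a cells, the largest of any called member in both. In CD4 cells Ndufa12 was 0.538, 0.414 and 0.593 in stressed knockout mice, against 0.34, 0.397 and 0.327 in knockout controls. Wild-type CD4 cells had 0.492, 0.477 and 0.483 in stressed wild-type mice, against 0.343, 0.317 and 0.418 in wild-type controls. The groups were again apart, with changes of 0.43 ± 0.13 (adjusted p = 0.0189) and 0.35 ± 0.12 (adjusted p = 0.0184). The knockout CD4 call ended without the third control or the first or the third stressed mouse (adjusted p up to 0.0858), the wild-type CD4 call without the first or second control (up to 0.0776), and the knockout CD8a call without the first control (0.0511).

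Ndufv2, a core subunit with an iron-sulfur cluster next to the flavin site, was, in CD8a cells, 0.795, 0.875 and 0.906 in stressed knockout mice, against 0.64, 0.687 and 0.622 in knockout controls. Wild-type CD8a cells had 0.762, 0.839 and 0.859 in stressed wild-type mice, against 0.658, 0.609 and 0.462 in wild-type controls. Both pairs of groups were separate, at 0.35 ± 0.10 (adjusted p = 0.00912) and 0.45 ± 0.12 (adjusted p = 0.0041). In CD4 cells it was 1.06, 0.999 and 0.885 in stressed knockout mice, against 0.881, 0.806 and 0.70 in knockout controls. For wild-type CD4 cells the values were 1.08, 0.957 and 1.06 in stressed wild-type mice, against 0.828, 0.736 and 0.668 in wild-type controls. Only the wild-type change passed in CD4 cells, at 0.43 ± 0.10 (adjusted p = 0.00285), beside 0.27 ± 0.11 (adjusted p = 0.0672) in the knockouts, where the groups did not overlap either. Ndufv1, the core subunit that binds NADH and the flavin, behaved less evenly. Its level in CD4 cells was 0.393, 0.378 and 0.264 in stressed knockout mice, against 0.457, 0.344 and 0.332 in knockout controls. The wild-type values were 0.419, 0.434 and 0.373 in stressed wild-type mice, against 0.35, 0.245 and 0.298 in wild-type controls. The knockout groups overlapped and the wild-type groups did not, with a wild-type change of 0.36 ± 0.13 (adjusted p = 0.0246) that ended without the second control or the first or second stressed mouse (adjusted p up to 0.11). Ndufv1 was not listed for the knockout CD4 comparison. Tested there with all genes of the cell type, its change was -0.11 ± 0.16 (adjusted p = 0.637). Its level in CD8a cells was 0.447, 0.282 and 0.306 in stressed knockout mice, against 0.268, 0.42 and 0.335 in knockout controls, a change of 0.01 ± 0.16 (adjusted p = 0.971). The CD8a groups overlapped in wild type too, with 0.368, 0.324 and 0.307 in stressed wild-type mice, against 0.302, 0.357 and 0.309 in wild-type controls.

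Ndufa2, a thioredoxin-fold subunit, rose in CD4 cells of both genotypes (0.29 ± 0.09, adjusted p = 0.0147 in knockout and 0.31 ± 0.07, adjusted p = 0.00269 in wild type) and was not called in CD8a cells (0.10 ± 0.08, adjusted p = 0.346 and 0.20 ± 0.09, adjusted p = 0.0539). The knockout CD4 values were 2.65, 2.76 and 2.59 in stressed knockout mice, against 2.17, 2.38 and 1.97 in knockout controls. The wild-type values were 2.9, 2.85 and 2.75 in stressed wild-type mice, against 2.17, 2.35 and 2.29 in wild-type controls. Both pairs were apart, and the knockout call ended without the third control or the second stressed mouse (adjusted p up to 0.0722) and with the rescaling (0.0573). Ndufs6, a zinc-binding subunit, was, in CD4 cells, 1.4, 1.43 and 1.62 in stressed knockout mice, against 1.22, 1.31 and 1.2 in knockout controls. Its wild-type CD4 values were 1.29, 1.41 and 1.42 in stressed wild-type mice, against 1.14, 1.18 and 1.08 in wild-type controls. It passed in wild-type CD4 cells alone, at 0.26 ± 0.09 (adjusted p = 0.0202), a call that ended without the third control or the second or the third stressed mouse (up to 0.0694), and its change in knockout CD4 cells was 0.23 ± 0.09 (adjusted p = 0.0642). Ndufv3 was called in no stress comparison of a single genotype, with changes between 0.04 ± 0.10 in knockout and 0.19 ± 0.11 in wild-type CD4 cells.

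In the Q module, 3 of 7 members rose in knockout and 5 of 7 in wild-type CD4 cells, and 4 of 7 and 5 of 7 in CD8a cells. Ndufa6, a small LYR-motif subunit that docks the acyl carrier protein onto the matrix arm, gave the clearest separation. In CD4 cells it was 2.65, 2.76 and 2.78 in stressed knockout mice, against 1.9, 2.0 and 1.85 in knockout controls. The wild-type CD4 values were 2.71, 2.76 and 2.71 in stressed wild-type mice, against 2.05, 1.99 and 2.22 in wild-type controls. Every stressed mouse was above every control of either genotype, and the change was 0.49 ± 0.08 (adjusted p = 9.29e-05) in knockout and 0.37 ± 0.07 (adjusted p = 0.000826) in wild-type cells. In CD8a cells Ndufa6 was 2.82, 2.66 and 2.41 in stressed knockout mice, against 1.91, 2.15 and 1.76 in knockout controls. Wild-type CD8a cells had 2.71, 2.97 and 2.69 in stressed wild-type mice, against 2.04, 2.11 and 1.87 in wild-type controls. The groups were apart here as well, at 0.42 ± 0.09 (adjusted p = 0.00101) and 0.46 ± 0.08 (adjusted p = 0.000181). All 4 calls of Ndufa6 held under each alternative run and without each mouse in turn, the highest adjusted p without a mouse being 0.00825. Ndufa5, another small subunit of this module, was also called in all 4 comparisons, by 0.29 ± 0.10 in knockout and 0.39 ± 0.11 in wild-type CD4 cells.

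The core subunits of the Q module were less uniform. Ndufs3 was called in all 4 comparisons. Its level in CD4 cells was 0.535, 0.456 and 0.337 in stressed knockout mice, against 0.387, 0.239 and 0.284 in knockout controls. Its wild-type CD4 values were 0.548, 0.453 and 0.424 in stressed wild-type mice, against 0.329, 0.293 and 0.294 in wild-type controls. The knockout groups overlapped, and the change was 0.43 ± 0.16 (adjusted p = 0.0484) in knockout and 0.50 ± 0.12 (adjusted p = 0.00275) in wild-type cells. The knockout CD4 call ended without the second or the third control or the first or second stressed mouse (adjusted p up to 0.213) and with a pseudocount of 1, the rescaling, no mean-variance trend or all genes of the cell type. The knockout CD8a values were 0.387, 0.385 and 0.48 in stressed knockout mice, against 0.334, 0.326 and 0.241 in knockout controls. The wild-type CD8a values were 0.547, 0.336 and 0.417 in stressed wild-type mice, against 0.334, 0.293 and 0.291 in wild-type controls. Neither pair overlapped, at 0.37 ± 0.13 (adjusted p = 0.0341), lost without the third control or the third stressed mouse (up to 0.195) and with the rescaling (0.0667), and 0.38 ± 0.14 (adjusted p = 0.0288), lost without the second or the third control or first stressed mouse (up to 0.125).

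Ndufs7, which carries the last cluster before ubiquinone, was, in CD4 cells, 0.996, 1.16 and 1.24 in stressed knockout mice, against 1.37, 0.961 and 1.02 in knockout controls. The wild-type values were 1.16, 1.04 and 1.21 in stressed wild-type mice, against 0.908, 0.934 and 0.852 in wild-type controls. The first knockout control was the highest of all 12 mice, and only the wild-type CD4 change passed, at 0.31 ± 0.09 (adjusted p = 0.0112), beside 0.03 ± 0.13 (adjusted p = 0.904) in the knockouts. CD8a changes of Ndufs7 were 0.16 ± 0.11 (adjusted p = 0.258) and 0.18 ± 0.09 (adjusted p = 0.0936). Ndufs8, another cluster-bearing core subunit, was, in CD4 cells, 0.706, 0.756 and 0.883 in stressed knockout mice, against 0.861, 0.698 and 0.587 in knockout controls. In wild-type CD4 cells it was 0.736, 0.669 and 0.704 in stressed wild-type mice, against 0.556, 0.671 and 0.544 in wild-type controls. Its CD4 groups overlapped in both genotypes. In CD8a cells the knockout groups overlapped and the wild-type groups were apart (0.745, 0.685 and 0.661 in stressed mice, against 0.627, 0.585 and 0.507 in controls). Ndufs8 was called in none of the 4 comparisons. Its changes were 0.12 ± 0.13 (adjusted p = 0.506) in knockout and 0.22 ± 0.11 (adjusted p = 0.0887) in wild-type CD4 cells. In CD8a cells they were 0.14 ± 0.11 (adjusted p = 0.314) in knockout and 0.25 ± 0.11 (adjusted p = 0.0518) in wild-type mice.

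In the membrane arm, 10 of 21 members rose in knockout and 16 of 21 in wild-type CD4 cells, and 9 of 21 and 13 of 18 in CD8a cells. Ndufb8, a structural subunit of the distal arm, changed most among all members in wild-type CD4 cells. The knockout CD4 values were 1.15, 1.23 and 1.35 in stressed knockout mice, against 0.98, 0.772 and 0.831 in knockout controls. Its wild-type CD4 values were 1.36, 1.05 and 1.02 in stressed wild-type mice, against 0.663, 0.687 and 0.739 in wild-type controls. Stressed mice of each genotype were all above their controls, by 0.49 ± 0.11 (adjusted p = 0.0018) and 0.63 ± 0.11 (adjusted p = 0.000338). Its level in CD8a cells was 1.03, 0.844 and 0.834 in stressed knockout mice, against 0.746, 0.683 and 0.634 in knockout controls. The wild-type CD8a values were 0.964, 0.806 and 0.913 in stressed wild-type mice, against 0.682, 0.642 and 0.536 in wild-type controls. These groups were apart too, at 0.35 ± 0.11 (adjusted p = 0.0183) and 0.47 ± 0.11 (adjusted p = 0.00179), and the knockout CD8a call ended without the second or the third control or the first stressed mouse (adjusted p up to 0.0872). Gm20538, an annotated gene on the same strand, overlaps Ndufb8 and shares its transcript end, so reads of both cannot be told apart.

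Ndufb7, an intermembrane-space subunit with a twin-cysteine (CHCH) fold, was called in all 4 comparisons and held under each alternative run. The knockout CD8a values were 2.04, 2.05 and 1.94 in stressed knockout mice, against 1.53, 1.52 and 1.35 in knockout controls. The wild-type CD8a values were 2.07, 1.86 and 1.92 in stressed wild-type mice, against 1.39, 1.65 and 1.36 in wild-type controls. Neither pair of groups overlapped, at 0.43 ± 0.08 (adjusted p = 0.000389) and 0.39 ± 0.09 (adjusted p = 0.00173). In CD4 cells it was 2.2, 2.28 and 2.51 in stressed knockout mice, against 1.88, 1.88 and 1.67 in knockout controls. Its wild-type CD4 values were 2.31, 1.93 and 2.33 in stressed wild-type mice, against 1.64, 1.79 and 1.72 in wild-type controls. The CD4 groups were apart as well, at 0.35 ± 0.09 (adjusted p = 0.00432) and 0.33 ± 0.09 (adjusted p = 0.00693). The CHCH-fold subunits Ndufa8 and Ndufs5 rose in wild-type CD4 cells, by 0.53 ± 0.09 (adjusted p = 0.000297) and 0.51 ± 0.11 (adjusted p = 0.00113). In CD4 cells Ndufa8 was 1.07, 1.31 and 1.29 in stressed knockout mice, against 1.2, 0.938 and 0.884 in knockout controls. In wild type it was 1.05, 1.2 and 1.18 in stressed wild-type mice, against 0.791, 0.77 and 0.716 in wild-type controls. The first knockout control lay within the stressed range, and the knockout change did not pass, at 0.26 ± 0.12 (adjusted p = 0.103). CD8a values of Ndufa8 were 1.24, 1.06 and 1.08 in stressed knockout mice, against 1.02, 0.884 and 0.839 in knockout controls, a change of 0.27 ± 0.10 (adjusted p = 0.0442) that ended without the second or the third control or the first or the third stressed mouse (adjusted p up to 0.181) and with the rescaling or no mean-variance trend (up to 0.111). Wild-type CD8a values were 1.12, 1.11 and 1.02 in stressed wild-type mice, against 0.755, 0.74 and 0.808 in wild-type controls, at 0.45 ± 0.09 (adjusted p = 0.000568). Ndufs5 was, in CD4 cells, 0.532, 0.689 and 0.695 in stressed knockout mice, against 0.471, 0.542 and 0.428 in knockout controls. In wild type it was 0.583, 0.623 and 0.62 in stressed wild-type mice, against 0.401, 0.435 and 0.357 in wild-type controls. The wild-type groups were apart and the knockout groups overlapped, and the knockout change of 0.34 ± 0.13 (adjusted p = 0.0441) ended without the first or the third control or the second or the third stressed mouse (up to 0.17) and with the rescaling, quality weights or all genes of the cell type (up to 0.0913). BC002163 shares 319 bases of the transcript end of Ndufs5 at 95% identity or more, so its values are uncertain.

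Ndufb3, a small single-helix subunit, was, in CD8a cells, 1.5, 1.58 and 1.45 in stressed knockout mice, against 1.11, 1.15 and 1.12 in knockout controls. Its wild-type CD8a values were 1.71, 1.48 and 1.34 in stressed wild-type mice, against 1.15, 1.2 and 1.1 in wild-type controls. Both pairs were apart, at 0.39 ± 0.08 (adjusted p = 0.00105) and 0.36 ± 0.10 (adjusted p = 0.00516). Knockout CD4 cells had 1.42, 1.46 and 1.74 in stressed knockout mice, against 1.44, 1.25 and 1.23 in knockout controls, which overlapped (0.22 ± 0.10, adjusted p = 0.111). The wild-type CD4 values were 1.62, 1.54 and 1.52 in stressed wild-type mice, against 1.18, 0.974 and 1.23 in wild-type controls, apart, and passed at 0.44 ± 0.10 (adjusted p = 0.00159). Gm45930 matches 282 bases of its transcript end. Ndufa3, a short single-helix subunit, was, in CD4 cells, 1.93, 1.96 and 1.95 in stressed knockout mice, against 1.37, 1.48 and 1.33 in knockout controls. The wild-type CD4 values were 2.42, 1.98 and 1.71 in stressed wild-type mice, against 1.55, 1.58 and 1.79 in wild-type controls. The knockout groups were far apart and the wild-type groups overlapped in part, with changes of 0.45 ± 0.08 (adjusted p = 0.000415) and 0.28 ± 0.11 (adjusted p = 0.0462). The wild-type call ended without the first or second control or the first or second stressed mouse (adjusted p up to 0.189) and under 5 of the 11 other alternatives (the replicate block, the rescaling, no mean-variance trend, quality weights and all genes of the cell type). CD8a changes were 0.37 ± 0.09 (adjusted p = 0.00363) in knockout and 0.13 ± 0.11 (adjusted p = 0.295) in wild-type mice.

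Ndufa13, also known as GRIM-19, was called in all 4 comparisons. Its level in CD4 cells was 3.58, 3.29 and 4.0 in stressed knockout mice, against 3.03, 3.2 and 2.8 in knockout controls. The wild-type values were 4.6, 3.65 and 4.22 in stressed wild-type mice, against 3.07, 2.93 and 2.83 in wild-type controls. The groups did not overlap, and the change was 0.26 ± 0.09 (adjusted p = 0.0289) in knockout, lost without the third control or the first or the third stressed mouse (adjusted p up to 0.136) and with the rescaling, no mean-variance trend or quality weights (up to 0.0967), and 0.48 ± 0.09 (adjusted p = 0.000402) in wild-type cells. CD8a values were 3.22, 3.52 and 3.31 in stressed knockout mice, against 2.77, 2.73 and 2.63 in knockout controls. For wild-type CD8a cells they were 3.96, 3.44 and 3.58 in stressed wild-type mice, against 2.74, 2.89 and 2.83 in wild-type controls. These were apart in both genotypes, at 0.30 ± 0.07 (adjusted p = 0.00282) and 0.36 ± 0.08 (adjusted p = 0.00081). Ndufb10, a disulfide-bonded subunit of the intermembrane face, passed in wild type alone, at 0.34 ± 0.08 (adjusted p = 0.00247) in CD4 and 0.24 ± 0.08 (adjusted p = 0.0182) in CD8a cells, the second of these lost without the second control or the third stressed mouse (up to 0.086) and with the replicate block (0.0515). Its values in CD8a cells were 1.8, 1.82 and 1.8 in stressed knockout mice, against 1.9, 1.68 and 1.64 in knockout controls, an overlap (0.06 ± 0.08, adjusted p = 0.646). Wild-type CD8a cells had 1.83, 1.8 and 1.97 in stressed wild-type mice, against 1.64, 1.5 and 1.57 in wild-type controls, with no overlap.

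Ndufa10, a subunit with a nucleoside kinase fold on the matrix face, was the membrane-arm gene with the smallest change in wild-type CD4 cells. The knockout CD4 values were 0.789, 0.811 and 1.06 in stressed knockout mice, against 0.882, 0.873 and 0.818 in knockout controls. The wild-type CD4 values were 0.885, 0.934 and 0.871 in stressed wild-type mice, against 0.86, 0.93 and 0.848 in wild-type controls. The groups overlapped in both genotypes, and the changes were 0.03 ± 0.12 (adjusted p = 0.859) and 0.03 ± 0.09 (adjusted p = 0.814). In CD8a cells it was 0.938, 0.788 and 0.894 in stressed knockout mice, against 0.944, 0.859 and 0.912 in knockout controls. Wild-type CD8a cells had 0.882, 0.857 and 0.912 in stressed wild-type mice, against 1.08, 1.01 and 1.07 in wild-type controls. Here the stressed wild-type mice were all below their controls. Ndufa10 was not listed for that comparison, and with all genes of the cell type it was lower, at -0.23 ± 0.09 (adjusted p = 0.0373), where 35.4% of genes were called lower. It was the 1 member called lower in any stress comparison of a single genotype, and only in that fit. Ndufb4 and Ndufb6 were called in none of the comparisons either, and the other 9 membrane-arm members had changes of 0.17 to 0.44 in CD4 cells.

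**Figure D2:**
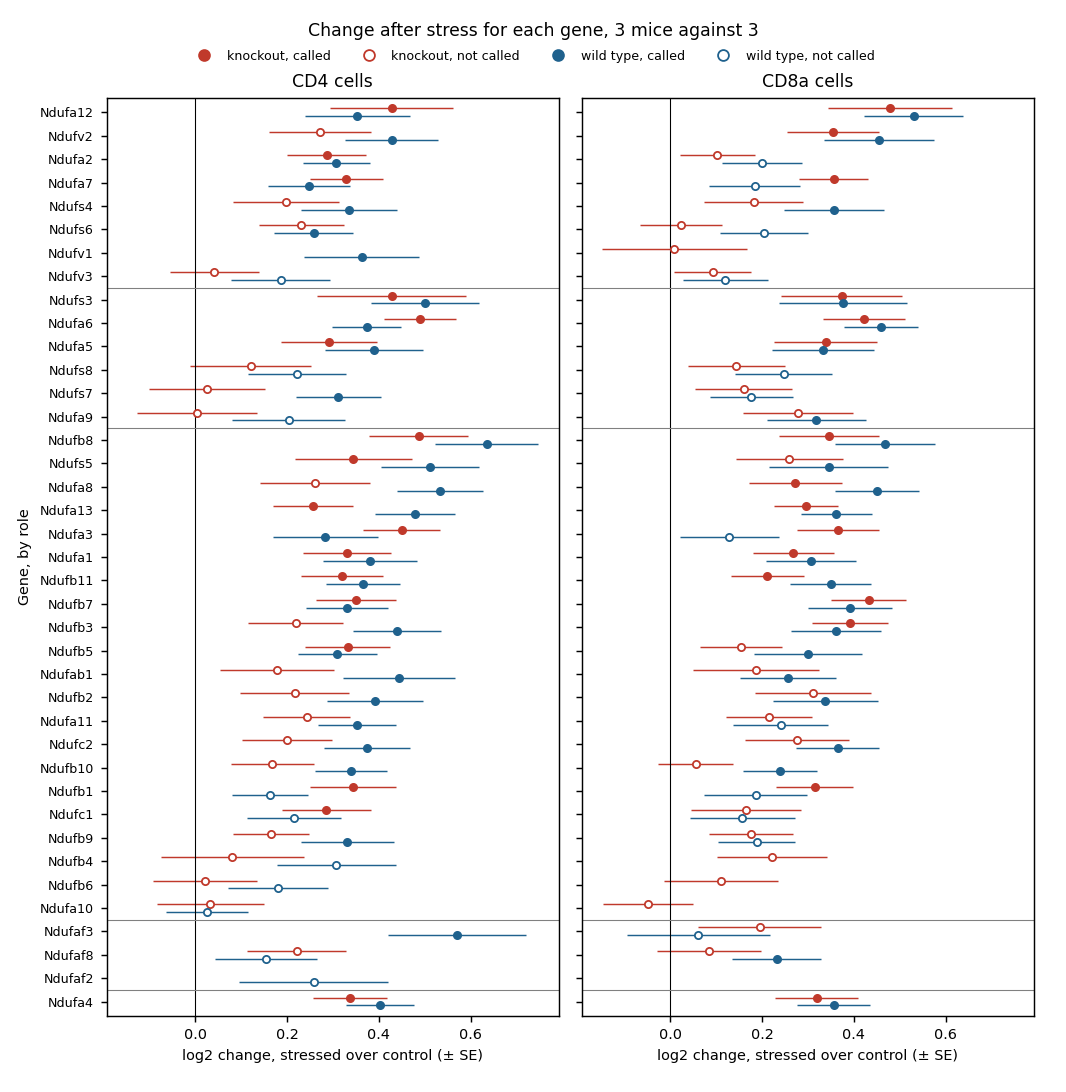
Log2 change after stress (stressed over control, ± SE) of each member shown and listed for the comparison, in knockout (red) and wild-type mice (blue), in CD4 cells (left) and CD8a cells (right), filled where called at an adjusted p under 0.05. Nearly all points lie right of 0, the largest being Ndufb8 in wild-type CD4 cells at 0.63 ± 0.11, and Ndufa10 lies at or just left of 0.

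Of the assembly factors, 0 of 1 listed rose in knockout and 1 of 3 in wild-type CD4 cells, and 0 of 2 and 1 of 2 in CD8a cells. The shares of all genes were 19.5% and 31%, and 17.9% and 26.7%. With 1 to 3 genes, these counts are not read as a difference from the subunits. Ndufaf3, which acts with Ndufaf4 in building the Q module, rose in wild-type CD4 cells at 0.57 ± 0.15 (adjusted p = 0.0057). Its knockout CD4 values were 0.213, 0.37 and 0.264 in stressed knockout mice, against 0.353, 0.32 and 0.222 in knockout controls. In wild type they were 0.404, 0.29 and 0.322 in stressed wild-type mice, against 0.202, 0.245 and 0.143 in wild-type controls. The wild-type groups were separate and the knockout groups overlapped, and with all genes of the cell type the knockout change was -0.06 ± 0.18 (adjusted p = 0.822). In CD8a cells Ndufaf3 was not called in either genotype (0.19 ± 0.13, adjusted p = 0.275 and 0.06 ± 0.16, adjusted p = 0.727). Ndufaf8 rose in wild-type CD8a cells alone, by 0.23 ± 0.10, and Ndufaf2, a relative of Ndufa12 that precedes it during assembly, was called nowhere. Ndufa4, the complex IV subunit, was called in all 4 comparisons. In CD4 cells it was 4.09, 3.96 and 4.0 in stressed knockout mice, against 3.38, 3.27 and 2.83 in knockout controls. Wild-type CD4 cells had 4.31, 3.77 and 4.15 in stressed wild-type mice, against 3.18, 3.0 and 2.98 in wild-type controls. Both pairs were apart, at 0.34 ± 0.08 (adjusted p = 0.00314) and 0.40 ± 0.07 (adjusted p = 0.000473). Its level in CD8a cells was 4.04, 3.95 and 3.6 in stressed knockout mice, against 3.42, 3.21 and 2.64 in knockout controls. The wild-type CD8a values were 4.42, 3.69 and 4.01 in stressed wild-type mice, against 3.13, 3.2 and 3.06 in wild-type controls. Neither pair overlapped, at 0.32 ± 0.09 (adjusted p = 0.00972), lost without the third control (0.0615), and 0.36 ± 0.08 (adjusted p = 0.00122).

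Summed over the members, expression in CD4 cells was 54.0, 54.4 and 55.9 in stressed knockouts, against 47.8, 46.1 and 41.5 in knockout controls. In wild type it was 57.8, 53.9 and 56.0 in stressed mice, against 43.1, 43.7 and 43.2 in controls. The sums of stressed mice were all above those of controls, with means of 54.8 ± 0.987 and 45.1 ± 3.24 in knockout and 55.9 ± 1.99 and 43.3 ± 0.30 in wild-type mice (SD, n = 3 each), or 1.21-fold and 1.29-fold. In CD8a cells the means were 49.4 ± 1.23 and 41.2 ± 2.68 in stressed and control knockouts (1.20-fold) and 51.4 ± 2.29 and 41.8 ± 0.883 in wild type (1.23-fold). The members were chosen with results of these data known, so the sums were not tested. All listed genes together rose 1.1-fold in knockout and 1.09-fold in wild-type CD4 cells on the same scale.

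Of the mitochondrially encoded subunits of the same complex, 5 (mt-Nd1, mt-Nd2, mt-Nd4, mt-Nd5 and mt-Nd6) were called lower after stress in all 4 comparisons, and also after centring on each mouse's median. Of all genes tested, 20% were called lower in knockout and 28.9% in wild-type CD4 cells, and 22.1% and 41.5% in CD8a cells. After centring these shares were 19.9%, 28.9%, 21.9% and 40.5%. In CD4 cells the sum of the 5 mt-Nd genes was 72.4, 76.3 and 73.3 in stressed knockouts, against 105, 103 and 119 in knockout controls. It was 65.4, 66.5 and 65.7 in stressed wild type, against 112, 98.2 and 96.2 in wild-type controls. In wild-type CD4 cells the falls ranged from mt-Nd1 (-0.40 ± 0.06, adjusted p = 0.00013) to mt-Nd6 (-1.28 ± 0.11, adjusted p = 4.54e-06), the 1 of them that is read from the other strand of the mitochondrial genome. A further listed gene, mt-Nd3, was counted apart, and it was not listed for the stress comparisons of the knockouts. It was 1.53, 1.26 and 0.993 in stressed wild-type CD4 cells, against 2.03, 2.77 and 2.56 in wild-type controls, a change of -0.92 ± 0.14 (adjusted p = 0.000106), and it fell by 0.94 ± 0.14 in wild-type CD8a cells (adjusted p = 5.06e-05). In the knockouts mt-Nd3 was at or near 0 in every mouse, at 0.00857 or less in CD4 and 0.0111 or less in CD8a cells. mt-Nd5 averaged 3.98 ± 0.152 in stressed knockout and 3.54 ± 0.0277 in stressed wild-type CD4 cells, and 8.13 ± 0.398 in knockout and 8.0 ± 0.680 in wild-type controls (SD, n = 3 each). The ratio of the sum of the 5 mt-Nd genes to the Nduf sum was 1.35 ± 0.0467 in stressed and 2.44 ± 0.368 in control knockout CD4 cells, and 1.18 ± 0.0526 in stressed and 2.36 ± 0.212 in control wild-type CD4 cells. In CD8a cells it was 1.79 ± 0.157 in stressed and 3.26 ± 0.361 in control knockouts, and 1.58 ± 0.123 in stressed and 2.92 ± 0.207 in control wild-type mice, without overlap in any of the 4 comparisons. The 12 listed mitochondrially encoded genes include the 5 mt-Nd genes and mt-Nd3. In CD4 cells the 12 summed to 410 to 430 in stressed knockouts, against 467 to 515 in knockout controls. They summed to 383 to 462 in stressed wild type, against 478 to 536 in wild-type controls. In proportion this whole group fell less, to 0.859 of the control mean in knockout and 0.838 in wild-type CD4 cells. The sum of the 5 mt-Nd genes fell to 0.678 and 0.645 of the control mean.

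**Figure D3:**
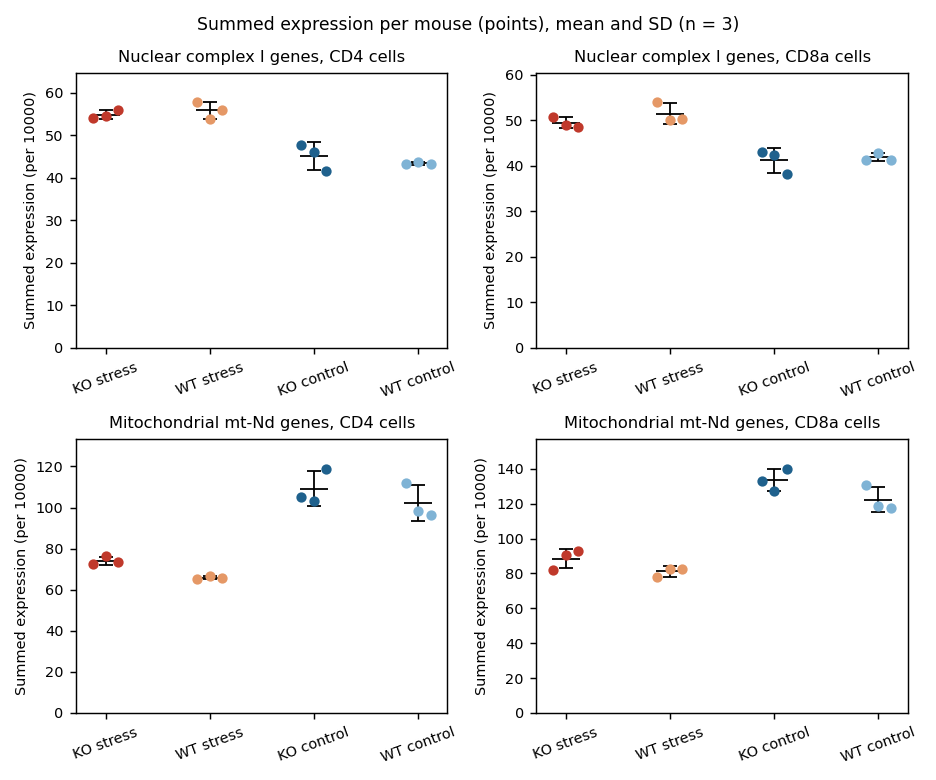
Summed average expression per mouse (points; bars are the mean and SD of 3 mice, per 10000) of the nuclear complex I genes (top) and of the 5 mt-Nd genes (bottom) in CD4 (left) and CD8a cells (right). Nuclear sums of stressed mice lie above those of controls (53.9 to 57.8 against 43.1 to 43.7 in wild-type CD4 cells), and mt-Nd sums lie below them (65.4 to 66.5 against 96.2 to 112).

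Nuclear genes of the other respiratory complexes rose alongside. Of the listed nuclear subunits of complexes II to V, 18 of 33 rose in knockout and 23 of 38 in wild-type CD4 cells, and 19 of 32 in both genotypes in CD8a cells, with 0 lower in each. Of all genes tested, 19.5% and 31% were called higher in these CD4 comparisons and 17.9% and 26.7% in these CD8a comparisons. The counts of subunits moved with the scaling, as did the shares of all genes, and 0 subunits were lower under each. In the knockouts 11 of 33 were higher in CD4 and 15 of 32 in CD8a cells after the rescaling without ribosomal and mitochondrial genes. The shares of all genes were 9.53% and 9.77%. Centring gave 22 and 22 (23.1% and 22.6% of all genes), and the remainder of 10000 gave 26 and 29 (38.2% and 34.5%). In wild type the counts were 23 of 38 and 27 of 32 after the rescaling (24.8% and 31.4% of all genes). They were 29 and 29 after centring (42% and 54.2%), and 32 and 29 with the remainder of 10000 (47.8% and 48.1%). Their median changes were 0.25 in knockout and 0.28 in wild-type CD4 cells and 0.25 and 0.26 in CD8a cells, close to those of the nuclear complex I genes. In wild-type CD4 cells Uqcrb of complex III rose by 0.47 ± 0.09 (adjusted p = 0.000801) and Cox7a2 of complex IV by 0.55 ± 0.10 (adjusted p = 0.000275), while Sdhb of complex II rose by 0.26 ± 0.09 (adjusted p = 0.0236). Complex I assembly factors without the Nduf name were scarce among the listed genes, and 0 of 2 rose in knockout and 1 of 3 in wild-type CD4 cells.

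Between the genotypes few nuclear complex I genes were called, which with 3 mice per group does not show that their differences are small. Without stress, 1 of 40 members was lower and 0 higher in knockout than in wild-type CD4 cells, where 1% of 2999 genes were called lower and 2.23% higher. Of the members, 7 had an unadjusted p under 0.05. The share of all genes under that unadjusted threshold is not given, here or in the comparisons below. Counts at that threshold are therefore not read as particular to the members. The knockout controls were all above the wild-type controls for 6 members (19.6% of genes) and all below for 2 (6.24%). The 1 called was Ndufb1, a short single-helix subunit of the distal membrane arm (RefSeq, chromosome 12, 101968096 to 101975738). In CD4 cells it was 1.46, 1.54 and 1.37 in knockout controls, against 1.77, 1.94 and 1.89 in wild-type controls. In CD8a cells it was 1.31, 1.33 and 1.31 in knockout controls, against 1.45, 1.80 and 1.92 in wild-type controls. All knockout controls were below all wild-type controls in both cell types, and the difference was -0.34 ± 0.09 (adjusted p = 0.0445) in CD4 and -0.35 ± 0.10 (adjusted p = 0.12) in CD8a cells. The CD4 call is not firm: it ended with a pseudocount of 1 (adjusted p = 0.0548), without the lowest 25% of genes (0.0512) and without 9 of the 12 mice in turn, each control of either genotype among them (up to 0.167). After stress Ndufb1 was 1.69, 2.04 and 1.90 in knockout, against 2.30, 2.02 and 1.99 in wild-type CD4 cells, with overlap, and the difference was -0.16 ± 0.09 (adjusted p = 0.571). Averaged over both stress states, a contrast added after Ndufb1 was seen, the difference was -0.25 ± 0.06 (adjusted p = 0.0381) in CD4 and -0.29 ± 0.07 (adjusted p = 0.0329) in CD8a cells.

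Stress raised Ndufb1 in the knockouts (0.34 ± 0.09, adjusted p = 0.00818 in CD4 and 0.31 ± 0.08, adjusted p = 0.00628 in CD8a cells, the first lost without the second stressed mouse at 0.0516) and did not pass in wild type (0.16 ± 0.08, adjusted p = 0.107 and 0.19 ± 0.11, adjusted p = 0.15). These changes use the same knockout controls as the genotype difference. The interaction of stress and genotype was 0.18 ± 0.12 (adjusted p = 0.587) in CD4 cells (95% interval -0.08 to 0.44) and 0.13 ± 0.14 (adjusted p = 0.858) in CD8a cells, and it did not pass in either.

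In the other genotype comparisons no member was called. Under stress in CD4 cells limma called 0 of 40 members (0.0333% of genes higher and 0.0667% lower), and 0 had an unadjusted p under 0.05. The knockouts were all above wild type for 0 members (8.57% of genes) and all below for 3 (5.57%). The smallest p belonged to Ndufa13 (-0.19 ± 0.09, adjusted p = 0.5). In CD8a cells limma called 0 of 39 without stress (0.281% of genes higher, 0.421% lower; 4 members at an unadjusted p under 0.05) and 0 of 39 under stress (0.316% each way; 3 members). Knockouts were all above wild type for 2 members without stress (12.8% of genes) and 0 under stress (10.7%), and all below for 4 (6.17%) and 2 (5.4%). The smallest p without stress were those of Ndufa3 (-0.36 ± 0.10, adjusted p = 0.109) and Ndufb1. Ndufa3 was 1.06, 1.24 and 1.13 in knockout, against 1.26, 1.58 and 1.68 in wild-type control CD8a cells, without overlap, and leaving out the first wild-type control brought both under the threshold, for 2 members called. Under stress they were Ndufa2 (-0.21 ± 0.08, adjusted p = 0.301), at 2.48, 2.27 and 2.18 in stressed knockout, against 2.83, 2.75 and 2.49 in stressed wild-type CD8a cells, and Ndufb1 (-0.23 ± 0.10, adjusted p = 0.368).

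The size of the stress effect was not shown to differ between genotypes. The interaction called 0 of 40 members in CD4 cells (2 at an unadjusted p under 0.05) and 0 of 39 in CD8a cells (0), and 0% of all genes in either. In CD4 cells the smallest p belonged to Ndufaf3, at -0.63 ± 0.25 (adjusted p = 0.45) with a 95% interval of -1.17 to -0.10, and to Ndufv1, at -0.47 ± 0.21 (adjusted p = 0.476) with an interval of -0.91 to -0.03. In CD8a cells they were Ndufb10 (-0.18 ± 0.11, adjusted p = 0.724) and Ndufa3 (0.24 ± 0.14, adjusted p = 0.733). The lower count of calls in knockout CD4 cells (17 of 37, against 30 of 40 in wild type) is therefore not a tested difference, and these 2 intervals reach changes as large as the stress effects themselves.

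**Figure D4:**
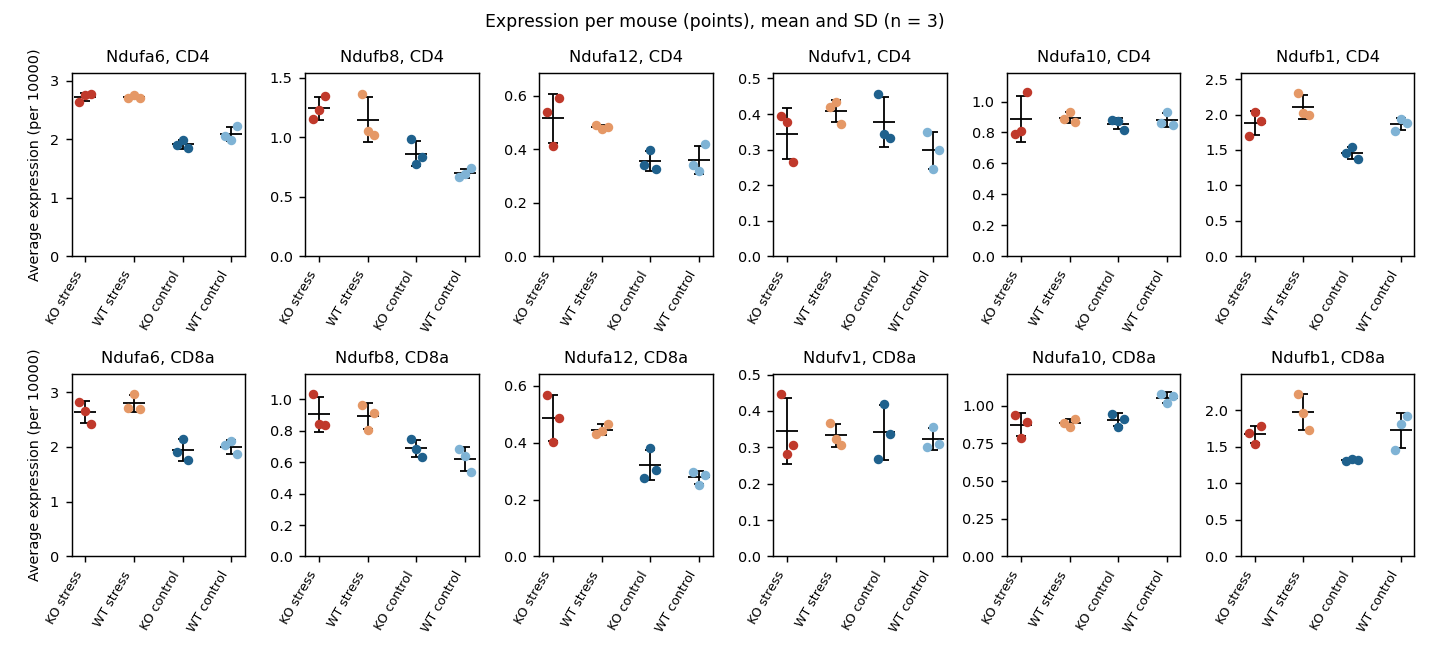
Average expression per mouse (points; bars are the mean and SD of 3 mice, per 10000) of 6 members in CD4 (top) and CD8a cells (bottom). Ndufa6, Ndufb8 and Ndufa12 are higher in stressed mice of both genotypes, Ndufv1 and Ndufa10 overlap in most groups, and Ndufb1 is lowest in the knockout controls (1.37 to 1.54 in CD4 cells).

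Set against CD4 cells of the same mouse, the share of members called lower in CD8a cells was near that of all genes. Of 39 members 15 were lower (8 with the replicate block) and 0 higher in CD8a cells, where 35.3% of 2166 genes listed for both cell types were called lower and 17.4% higher, and the median difference was -0.09 beside -0.06 over all genes. The 15 comprised 5 of 8 members of the NADH module, 0 of 7 of the Q module, 9 of 21 of the membrane arm and 1 of 2 assembly factors. The largest differences, named after their values were seen, were those of Ndufv3 (-0.32 ± 0.03), Ndufb8 (-0.29 ± 0.05), Ndufv2 (-0.26 ± 0.05) and Ndufa3 (-0.25 ± 0.03). Values of a cell type are relative to its own RNA, and ribosomal protein genes took a larger part of the listed total in CD8a cells. The lists differed, with 124 ribosomal protein genes listed for CD8a and 118 for CD4 cells, and their part in this was not tested. The stress effect in CD8a minus that in CD4 cells passed for 0 of 39 members in the knockouts and 0 of 39 in wild type (0% of genes higher in each, and 0% and 0.0462% lower; 1 and 2 members at an unadjusted p under 0.05). The smallest p were those of Ndufa2 and Ndufs6 in the knockouts (-0.18 ± 0.08, adjusted p = 0.793 and -0.21 ± 0.10, adjusted p = 0.836) and of Ndufaf3 and Ndufa10 in wild type (-0.51 ± 0.23, adjusted p = 0.583 and -0.26 ± 0.12, adjusted p = 0.617).

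By their medians, the members have shorter transcripts and 3′ ends than the listed genes. The median annotated transcript was 875 bases over 39 members, beside 2059 bases over 3097 listed protein-coding genes, and the median 3′ untranslated region was 134 bases, beside 701. Ndufb2 (4371 bases, 4012 of them 3′ untranslated) and Ndufab1 (3479 and 2944) are above the medians of all listed genes. Across members, Spearman's rho of transcript length and change after stress was -0.25 in CD4 cells (39 genes) and -0.12 in CD8a cells (38 genes) for the change averaged over genotypes, and it was -0.44 in knockout CD4 (36 genes), 0.06 in wild-type CD4 (39), -0.19 in knockout CD8a (38) and 0.08 in wild-type CD8a cells (34). These are descriptions across genes of the same libraries, without a test. The transcript ends of Ndufb3, Ndufb8, Ndufb9, Ndufb11, Ndufs3, Ndufs5 and Ndufs6 match another annotated gene at 95% identity or more over at least 100 bases, so their counts may be split or shared with a copy. Ndufb1 has no entry under that name in GENCODE M21, so its length was not taken and its transcript end was not searched for copies.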

How the data were processed

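The deposited values are a signal: average expression per gene and mouse in CD4 and in CD8a cells, which the authors deposited as 8 tables, 4 per cell type, 1 for each comparison. Libraries were 10x 3′ v2, and the submitters' processing notes name Cell Ranger 2.1.1 and mm10. The averaging, the scale, the definition of the cells, the treatment of doublets and the rule by which genes were chosen for a table are not given in the sources used here. Every table holds all 12 mice, and a gene's values are identical in every table of a cell type. These tables hold averages and no counts, so the depth and the number of cells behind a value are unknown.

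Values were tested as log2(value + 0.1) with limma 3.58.1 (R 4.3.3), with a mean-variance trend, two-sided, with Benjamini-Hochberg adjustment over all genes of the fit and a threshold of 0.05. A fold change on this scale understates that of low genes. Stress within a genotype used the genes of its own table and its 6 mice. Genotype, interaction and averaged contrasts used all 12 mice and all genes of the cell type, and CD8a minus CD4 was taken within a mouse. The code was tested on simulated data. P-values rest on the spread between the 3 mice of a group, pooled over all groups of the fit. The spread of each gene was also moderated by limma toward that of the other genes of the fit.

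The members and lists were chosen with earlier results of these data known. Members named with all values were the 4 largest called rises and falls without overlap per stress comparison, members called (or the 2 smallest p) in the other contrasts, the core subunits and Ndufa4. Values of some genes under this rule are not reported here, while counts and sums cover every member. Ndufa5, Ndufaf8 and other genes outside that rule were chosen after their values were seen. Alternatives were other pseudocounts (0.01 and 1), removal of the lowest 25% of genes, centring, rescaling, a replicate block, no trend, quality weights, other gene sets and leaving out each mouse. Scaling to the remainder of 10000, rescaling of the averaged contrast and the genotype contrast averaged over stress were added after the data were seen. Positions are from GENCODE M21 (mm10), and transcript ends (the last 500 bases) were compared with BLAST 2.17.0.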

Additional observations from a re-analysis of the deposited data

How the results depend on the processing

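No member's change turned its direction among those called. The calls higher after stress moved past 1.5 times only in the knockouts: rescaling gave 11 in CD4 and 11 in CD8a cells, scaling to the remainder of 10000 gave 30 and 32, and leaving out a mouse gave 8 to 20 in CD4 and 9 to 18 in CD8a cells, the lowest without the third knockout control. In wild type the counts without a mouse were 26 to 28 in CD4 and 17 to 21 in CD8a cells, and 1 member was called lower in CD8a cells with all genes of the cell type. Averaged over genotypes they were 29 to 31 in CD4 and 24 to 30 in CD8a cells, with 0 to 1 lower in CD8a cells. Ndufb1, the 1 member lower in knockout CD4 cells without stress, gave 0 calls with a pseudocount of 1, without the lowest 25% of genes and with the replicate block, and 0 to 1 lower and 0 to 1 higher (Ndufa8, without the third knockout control) without a mouse. In CD8a cells without stress 0 to 2 were called lower. CD8a cells had 8 members lower than CD4 cells with the replicate block and 14 to 17 without a mouse. Shares of all genes called without a mouse, or with the block in this comparison, are not given here. Replicate numbers did not pair the mice. Correlations of same-numbered deviations ran from -0.20 to 0.23 in CD4 cells and -0.24 to 0.24 in CD8a cells, with 1 and 4 of 18 over 0.1. The block gave 18 calls higher after stress in knockout CD4 cells (21.5% of all genes) and 28 in wild-type CD4 cells (27.8%). In CD8a cells it gave 18 in each genotype (19.5% of all genes in knockout and 22.7% in wild type). Centring on each mouse's median raised the difference of the summed members, stressed minus control, to 14.3 in knockout and 15.0 in wild-type CD4 cells (matrix arm 4.62 and 4.76, membrane arm 8.26 and 8.74) and to 13.6 and 16.2 in CD8a cells (matrix arm 4.60 and 5.56, membrane arm 7.66 and 8.99, assembly factors 0.197 and 0.262), and rescaling gave 12.2 in wild-type CD8a cells (matrix arm 4.19, membrane arm 6.70). The cause of these shifts was not tested. The low genes of the set cannot be given a counting error, since depth is unknown.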
